A study of Mus musculus with 3 samples.

Results

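The NRF2 antioxidant program was examined as 10 genes in mouse colon adenocarcinoma cells of 3 lines, parental Colon26 and the sublines LuM1 and NM11 derived from it. The genes were *Nfe2l2*, *Keap1*, *Nqo1*, *Hmox1*, *Gclc*, *Gclm*, *Txnrd1*, *Srxn1*, *Gsr* and *G6pdx*, out of 22911 genes with a named probe. They were chosen by symbol, through the RefSeq accession of each probe, and were read by 11 of 56605 probes. *Txnrd1* had 2 probes and the other 9 genes had 1 each. All 3 lines derive from female BALB/c mice, carry no treatment or transgene that the labels name, and were grown in RPMI1640 with serum and antibiotics. LuM1 is labelled as highly metastatic and NM11 as low in metastasis. Total RNA (0.1 µg) was taken after 3 days of culture. Each line was measured on 1 single-colour array, so no difference has a replicate check and no test was run.

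NRF2, the product of *Nfe2l2*, is a transcription factor that binds antioxidant response elements near its target genes together with a small MAF protein. In unstressed cells KEAP1 holds it for ubiquitination by a CUL3 ligase, and oxidants or electrophiles that modify KEAP1 let NRF2 accumulate. Much of this control acts on the protein, which mRNA levels do not measure. The targets make and recycle glutathione and thioredoxin, supply NADPH, degrade heme and reduce quinones, and the pathway is often active in carcinomas.

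Promoter windows of the genes were searched for the core of the element that NRF2 binds, and the matched stretches before a start are shown. RefSeq windows on GRCm38.p6, from 250 bases before to 50 bases after a transcript start, were at hand for 7 of the 10 genes, as 9 windows. *Hmox1*, *Gclc* and *Gsr* had no entry. The core was searched as TGACNNNGC on both strands. It was found in 5 of 9 windows of these genes (55.6%), 1 window each for *Nfe2l2*, *Gclm*, *Txnrd1*, *Srxn1* and *G6pdx*. Of all 32851 windows, 12.4% held it, and of 108 windows of the wider list of related genes described below, 14.8%. In the *Srxn1* window the match lay 29 bases after the start, within the transcript, and that window held the AP-1 site TGAGTCA 2 times, which was found in 5.20% of all windows. The letters of the motifs overlap in part, since TGAC opens both the core and the AP-1 site read on the other strand. The *Nqo1* and *Keap1* windows held neither run of letters. The lines below give the matched bases in capitals, read along the gene from 5′ to 3′, with the distance from the start in bases.

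*Nfe2l2*, chr2:75704875-75704913, minus strand, core 240 before the start: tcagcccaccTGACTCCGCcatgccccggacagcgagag
*Gclm*, chr3:122245403-122245451, plus strand, core on the other strand 134 before the start: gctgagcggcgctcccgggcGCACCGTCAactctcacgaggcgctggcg
*Txnrd1*, chr10:82859094-82859142, plus strand, core on the other strand 92 before the start: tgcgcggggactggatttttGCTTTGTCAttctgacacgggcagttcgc
*G6pdx*, chrX:74428909-74428957, minus strand, core on the other strand 57 before the start: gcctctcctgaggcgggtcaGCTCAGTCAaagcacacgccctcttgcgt
*Srxn1*, chr2:152105412-152105495, plus strand, AP-1 sites 102 and 45 before the start: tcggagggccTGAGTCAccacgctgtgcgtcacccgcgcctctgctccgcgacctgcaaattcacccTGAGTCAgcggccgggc

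Values below are probe signals scaled so that the 75th percentile of each array is 585.1, in arbitrary units. Each is given with the scanner software's own error, about 10% of a bright signal, which leaves out the spread between cultures. A log2 ratio of bright probes had a scanner error of 0.20. The arrays' 75th percentiles before scaling were 581.1 for Colon26, 625.1 for LuM1 and 551.5 for NM11, and 49.9% to 53.8% of probes were well above background by the scanner's flag. Of 11 colon epithelium markers, 3 were well above background in Colon26, 4 in LuM1 and 3 in NM11. Those detected in every line differed between the lines. *Krt20* was at 651, 54.5 and 157 in Colon26, LuM1 and NM11 cells (log2 -3.58 and -2.05 over Colon26), *Cdx2* at 443, 232 and 167 (-0.94 and -1.41), and *Krt8* at 28.9, 108 and 37.1 (1.89 and 0.36). *Epcam* was well above background in LuM1 cells alone, and *Cdh1*, *Krt18*, *Krt19*, *Cdx1*, *Vil1*, *Lgr5* and *Muc2* on no array. All 4 mesenchymal markers and 1 of 4 endothelium markers were well above background on every array. Of 5 fibroblast markers, 4 were well above background in Colon26 and all 5 in both sublines. Of 6 leukocyte and macrophage markers, 3 were in Colon26, 4 in LuM1 and 3 in NM11, with *Ptprc* and *Adgre1* on none. The part of these differences in the ratios below was not tested, and fewer cells with an mRNA cannot be told apart from less of it per cell.

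Probes of 9 genes passed the scanner's background flag on every array, whereas *Nqo1* passed it in Colon26 alone. In LuM1 cells *Hmox1* was higher and *Nqo1* lower than in Colon26 cells by at least 2-fold, and the other 8 genes lay within 2-fold. In NM11 cells *Nqo1* was lower than in Colon26 cells by at least 2-fold, and *Hmox1* lay just inside the limit. Between LuM1 and NM11 cells no gene with a ratio differed by 2-fold.

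**Figure D1:**
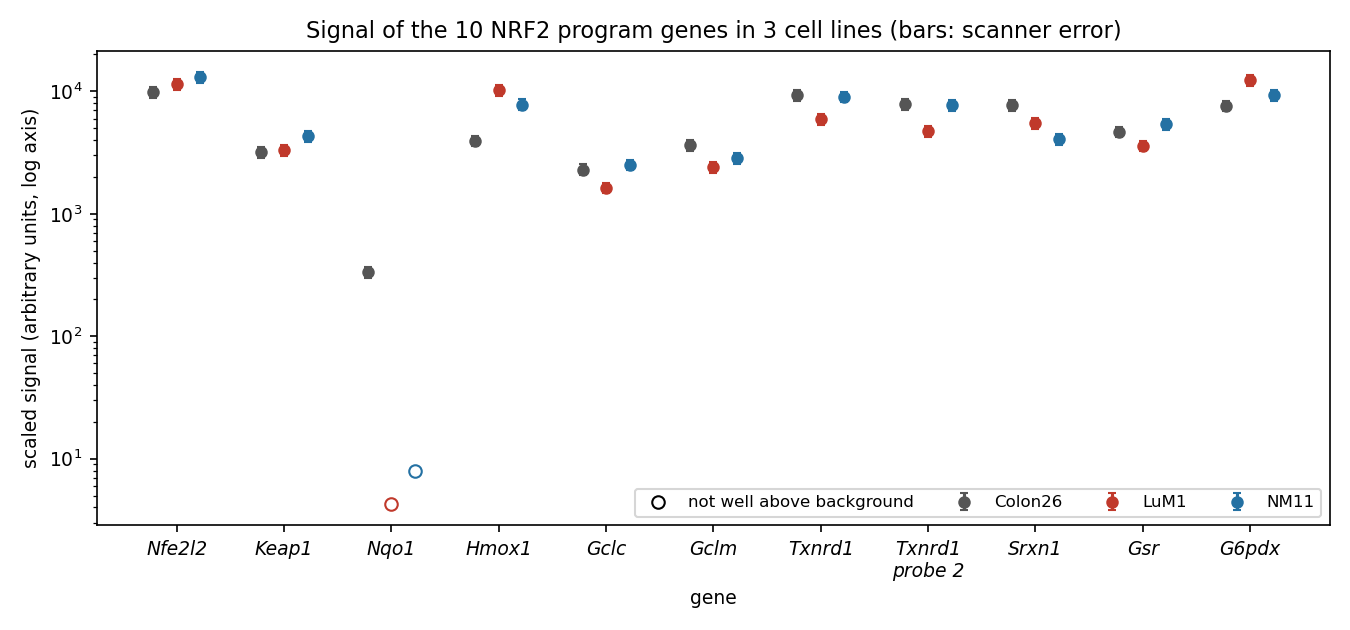
Scaled signal of each of the 11 probes (log axis, arbitrary units) in Colon26, LuM1 and NM11 cells. Bars are the scanner error and open circles mark a spot not well above background. *Nqo1* in LuM1 and NM11 cells lies at 4.29 and 7.87, and the other probes lie between 1634 and 13003 in all 3 lines.

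*Nfe2l2* (chr2:75675513-75704663), which encodes NRF2 itself, gave 9816 ± 982 in Colon26 cells, 11377 ± 1138 in LuM1 cells and 13003 ± 1300 in NM11 cells. Its log2 ratio was 0.21 for LuM1 over Colon26, 0.41 for NM11 over Colon26 and -0.19 for LuM1 over NM11. The highest and lowest line differed by 1.32-fold, and LuM1 lay within 1 scanner error of NM11.

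*Keap1* (chr9:21229730-21239332), the adaptor that presents NRF2 to the CUL3 ligase, gave 3167 ± 317, 3321 ± 332 and 4296 ± 430 in Colon26, LuM1 and NM11 cells. NM11 cells were 1.36-fold above Colon26 cells, a log2 ratio of 0.44, and LuM1 cells were within 1 scanner error of Colon26 cells at 0.07. With the 75th percentile scaling both regulators ran from Colon26 through LuM1 to NM11, but this order did not hold under some other scalings. The LuM1 over NM11 ratio of *Nfe2l2* was 0.40 with *Hprt*, 0.13 with the spike-in controls, 0.22 in the authors' processed values and 0.078 with quantile normalization, and that of *Keap1*, -0.37 with the 75th percentile, was 0.22 with *Hprt* and 0.042 in the authors' values. Scaling to *Hprt* also turned the NM11 over Colon26 ratios below 0, to -0.08 for *Nfe2l2* and -0.05 for *Keap1*, and normexp background correction turned that of *Keap1* for LuM1 over Colon26 to -0.005.

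*Hmox1* (chr8:75093618-75100593) encodes the inducible heme oxygenase, which opens heme into biliverdin, carbon monoxide and iron. Its signal was 3940.4 ± 394 in Colon26 cells, 10266 ± 1027 in LuM1 cells and 7808 ± 781 in NM11 cells. LuM1 cells were 2.61-fold above Colon26 cells (log2 1.38) and NM11 cells 1.98-fold (log2 0.99). Colon26 was the low line, and both sublines lay above it by more than 2 scanner errors. LuM1 was 1.31-fold above NM11 (log2 0.39). Of the measured named genes, 6.07% had a higher ratio for LuM1 over Colon26 and 6.43% for NM11 over Colon26. Over 11 alternatives the LuM1 over Colon26 value ran from 1.36 to 1.83 and the NM11 over Colon26 value from 0.50 to 1.02. Those on dim spots, clustered spots and several probes could not move a bright gene with 1 probe.

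*Nqo1* (chr8:107388225-107403205), a quinone reductase that is among the best known NRF2 targets, gave 336 ± 34.1 in Colon26 cells. In LuM1 cells the spot was at 4.29 and in NM11 cells at 7.87, and neither was well above background. Against the lowest signal well above background on those arrays, the *Nqo1* level in LuM1 cells was lower by at least 16.7-fold and that in NM11 cells by at least 17.2-fold. With normexp background correction the bounds shrank to log2 ratios of at most -2.62 and -2.37, from -4.06 and -4.10. There is no ratio between LuM1 and NM11.

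The *Nqo1* spot lay in an area of the Colon26 array that held more spots above background than the array at large. Of its 60 nearest spots, 7 were well above background on the Colon26 array alone, against 1.14 if such spots were spread evenly. Around all spots well above background on the Colon26 array alone the median of this count was also 7. On the LuM1 and NM11 arrays it was 3 and 2, against 2.10 and 1.28. Of the 60 spots nearest *Nqo1*, 21 were not well above background on the LuM1 and NM11 arrays. Of these, 14 (66.7%) were significantly above background in Colon26, against 30.3% of such spots over the whole array. Their median signal on the Colon26 array was 14.3 and their highest 173, below the 336 of *Nqo1*. The part of this area in the *Nqo1* signal was not tested. Since *Nqo1* has 1 probe, no other spot checks it, and the members' counts below are also given without *Nqo1*.

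**Figure D2:**
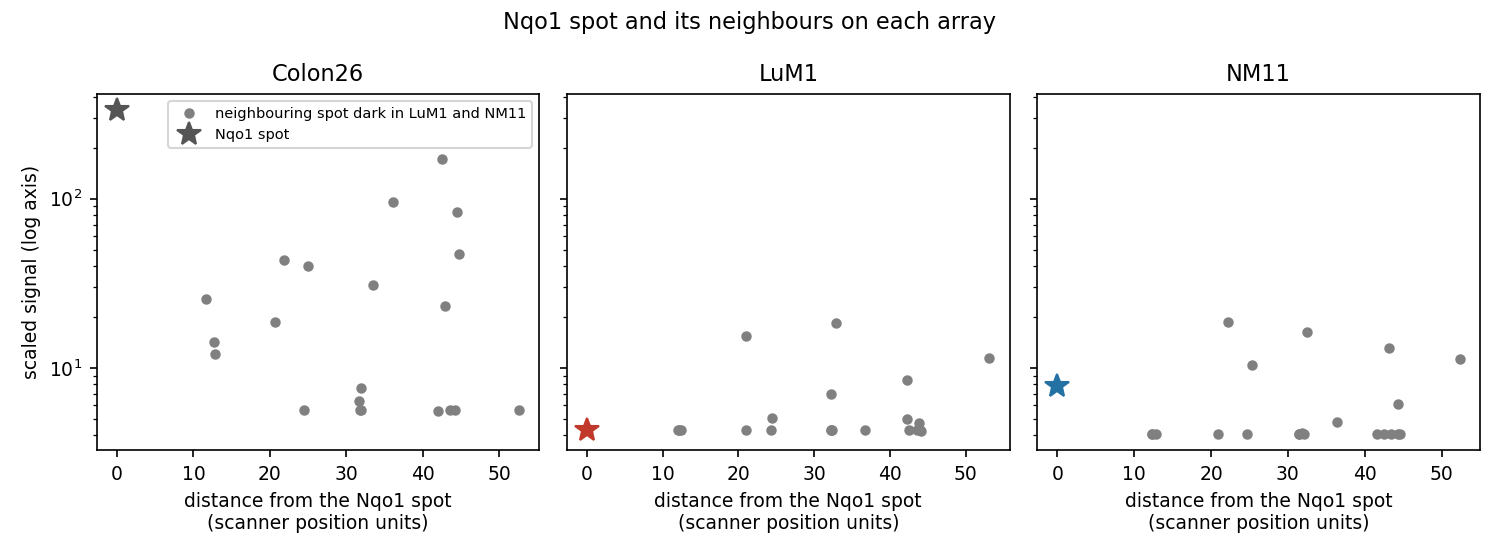
Scaled signal (log axis) of the *Nqo1* spot, drawn as a star, and of the 21 neighbouring spots chosen for being dark on the LuM1 and NM11 arrays, against distance in scanner position units, on each array. On the Colon26 array the neighbours reach 173 and the star stands at 336, while on the LuM1 and NM11 arrays, where they were chosen to be dark, the neighbours reach 18.5 and 18.6.

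*Gclc* (chr9:77754535-77794489) and *Gclm* (chr3:122245487-122267215) encode the catalytic and the modifier subunit of glutamate-cysteine ligase, which performs the rate-limiting step of glutathione synthesis. *Gclc* gave 2300 ± 230.1 in Colon26 cells, 1634 ± 163 in LuM1 cells and 2518 ± 252 in NM11 cells. *Gclm* gave 3646 ± 365 in Colon26 cells, 2411 ± 241 in LuM1 cells and 2844 ± 284 in NM11 cells. LuM1 lay below Colon26 for both subunits, at a log2 ratio of -0.49 for *Gclc* and -0.60 for *Gclm*, both beyond 2 scanner errors. In the authors' values these ratios were -0.05 and -0.15, within 1 scanner error. Against NM11, *Gclc* was at -0.62 in LuM1 cells and below 0 in all 11 alternatives, some of which could not move it. It shrank to -0.30 with the spike-in controls, -0.21 in the authors' values and -0.035 with *Hprt*. *Gclm* was at -0.24, about 1 scanner error, and turned to 0.35 with *Hprt*, 0.086 with the spike-in controls and 0.18 in the authors' values, so which subline was lower for *Gclm* depends on the scaling. In NM11 cells the subunits parted, with *Gclc* at 0.13, within 1 scanner error of Colon26, and *Gclm* at -0.36. Under scaling to *Hprt* and to the spike-in controls the *Gclc* value for NM11 over Colon26 was below 0, the lowest being -0.36.

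*Gsr* (chr8:33653238-33698162), glutathione reductase, returns oxidized glutathione to its reduced form with NADPH. It gave 4681 ± 468 in Colon26 cells, 3595 ± 360 in LuM1 cells and 5398 ± 540 in NM11 cells. LuM1 was at a log2 ratio of -0.59 to NM11 and -0.38 to Colon26, which became 0.0027 with scaling to *Hprt* and 0.066 in the authors' processed values respectively. NM11 over Colon26 was at 0.21, about 1 scanner error, and below 0 with *Hprt* and the spike-in controls.

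*Txnrd1* (chr10:82833951-82897724), the cytosolic thioredoxin reductase, was read by 2 probes. The brighter gave 9329 ± 933, 5908 ± 591 and 9027 ± 903 in Colon26, LuM1 and NM11 cells, and the other 7862 ± 786, 4719 ± 472 and 7679.7 ± 768. Both probes placed LuM1 below Colon26, at -0.66 and -0.74, and below NM11, at -0.61 and -0.70. Both placed NM11 within 1 scanner error of Colon26, at -0.05 and -0.03. The sign of the LuM1 ratios held in all 11 alternatives, up to -0.21 against Colon26 and -0.02 against NM11. The alternatives on dim and clustered spots could not move these ratios.

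*Srxn1* (chr2:152105524-152111376) encodes sulfiredoxin, which repairs over-oxidized peroxiredoxins. It gave 7723 ± 772 in Colon26 cells, 5466 ± 547 in LuM1 cells and 4088 ± 409 in NM11 cells. NM11 was the low line, 1.89-fold below Colon26 (log2 -0.92), and LuM1 lay between at -0.50. Of the measured named genes, 6.65% had a lower ratio for NM11 over Colon26. Scaling to *Hprt* moved that value to -1.41, beyond 2-fold. In the authors' values LuM1 over Colon26 was at -0.05, within 1 scanner error.

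*G6pdx* (chrX:74409483-74428880) encodes glucose-6-phosphate dehydrogenase, the entry step of the pentose phosphate pathway and a source of NADPH. Its signal was 7650.4 ± 765 in Colon26 cells, 12297 ± 1230 in LuM1 cells and 9324 ± 932 in NM11 cells. LuM1 was the high line, 1.61-fold above Colon26 (log2 0.68) and 1.32-fold above NM11 (log2 0.40). NM11 was at 0.29 against Colon26, which became -0.20 under scaling to *Hprt* and was below 0 with the spike-in controls. In the authors' processed values LuM1 was at 1.13 against Colon26, beyond 2-fold.

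The 3 comparisons share arrays and are not independent. For LuM1 over Colon26, 1 of 10 members (*Hmox1*) was at least 2-fold higher, beside 12.9% of 14350 named genes. A further 1 (*Nqo1*) was at least 2-fold lower, beside 11.7%. These shares, here and below, are of all named genes whose brightest probe was well above background on either array of the pair. Without *Nqo1* the counts were 1 and 0 of 9. The median of the 9 measured members was -0.38, beside -0.13 for all measured named genes, with 4 members above 0 and 5 below. *Nqo1* has a bound only and is in no median.

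For NM11 over Colon26, 0 of 10 members were at least 2-fold higher, beside 8.17% of 14107 genes, and 1 (*Nqo1*) at least 2-fold lower, beside 7.74%. Without *Nqo1* both counts were 0 of 9. The median of the 9 measured members was 0.21, beside -0.02 for all genes, with 6 members above 0 and 3 below. For LuM1 over NM11, 0 of 9 members passed 2-fold in either direction, beside 11.1% higher and 8.5% lower of 14412 genes. The median was -0.24, beside -0.11, with 3 members above 0 and 6 below. With so few members, counts of 0 or 1 lie near these shares.

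**Figure D3:**
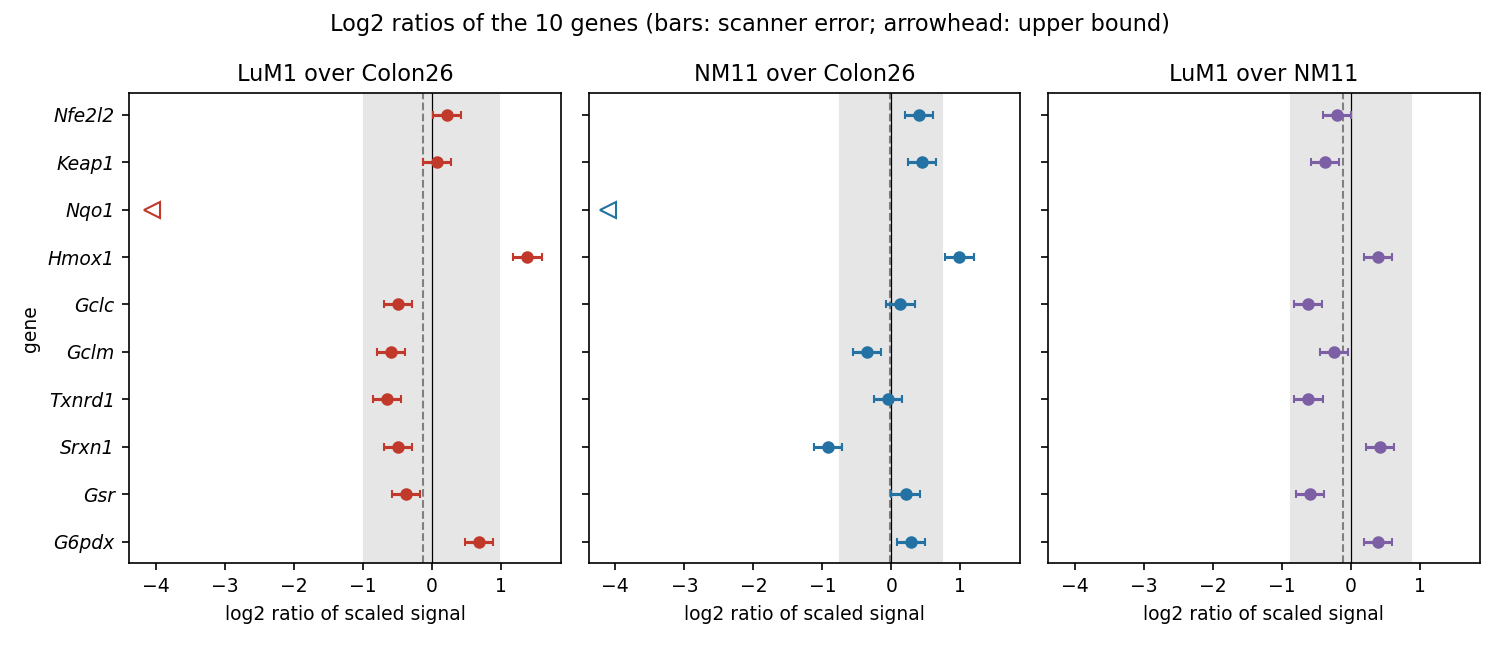
Log2 ratios of the 10 genes in the 3 comparisons, with the scanner error as bars and arrowheads for the *Nqo1* bounds. The grey band runs from the 10th to the 90th percentile of all measured named genes and the dashed line is their median. *Hmox1* lies above the band for LuM1 over Colon26 (1.38) and NM11 over Colon26 (0.99), and *Srxn1* below it for NM11 over Colon26 (-0.92).

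The members did not shift as a block. For LuM1 over Colon26 the highest measured member, *Hmox1*, and the lowest, *Txnrd1*, were 4.11-fold apart in their ratios, a difference of 2.04 in log2. For NM11 over Colon26 *Hmox1* and *Srxn1* were 3.74-fold apart, and for LuM1 over NM11 *Srxn1* and *Gclc* were 2.06-fold apart. Genes at large spread as well. For LuM1 over NM11 all measured members lay inside the 10th to 90th percentile of all measured named genes, -0.87 to 0.88. A difference between genes within a pair of arrays stays the same under any constant scaling of an array.

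The levels themselves do depend on the scaling. In the authors' processed values the median of all genes for LuM1 over Colon26 moved up by 0.45, and 77.7% of the genes called were higher in place of 52.5%. For NM11 over Colon26 the share of higher calls went from 51.3% to 20.1% with scaling to *Hprt* and to 29.1% with scaling to the spike-in controls. For LuM1 over NM11 it went from 56.6% to 68.6% without scaling, 77.2% with the spike-in controls, 81.4% in the authors' values and 87.8% with *Hprt*. *Hmox1* stayed above Colon26 in both sublines in all 11 alternatives. The ratios of *Gclm*, *Txnrd1* and *Srxn1* over Colon26 stayed below 0, but not always by more than the scanner error. *Txnrd1* was at -0.05 in NM11 cells. In the authors' values *Gclm* was at -0.15 and *Srxn1* at -0.05 in LuM1 cells. The alternatives on dim spots and clustered spots could not move these genes, nor could the mean over probes move those with 1 probe.

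**Figure D4:**
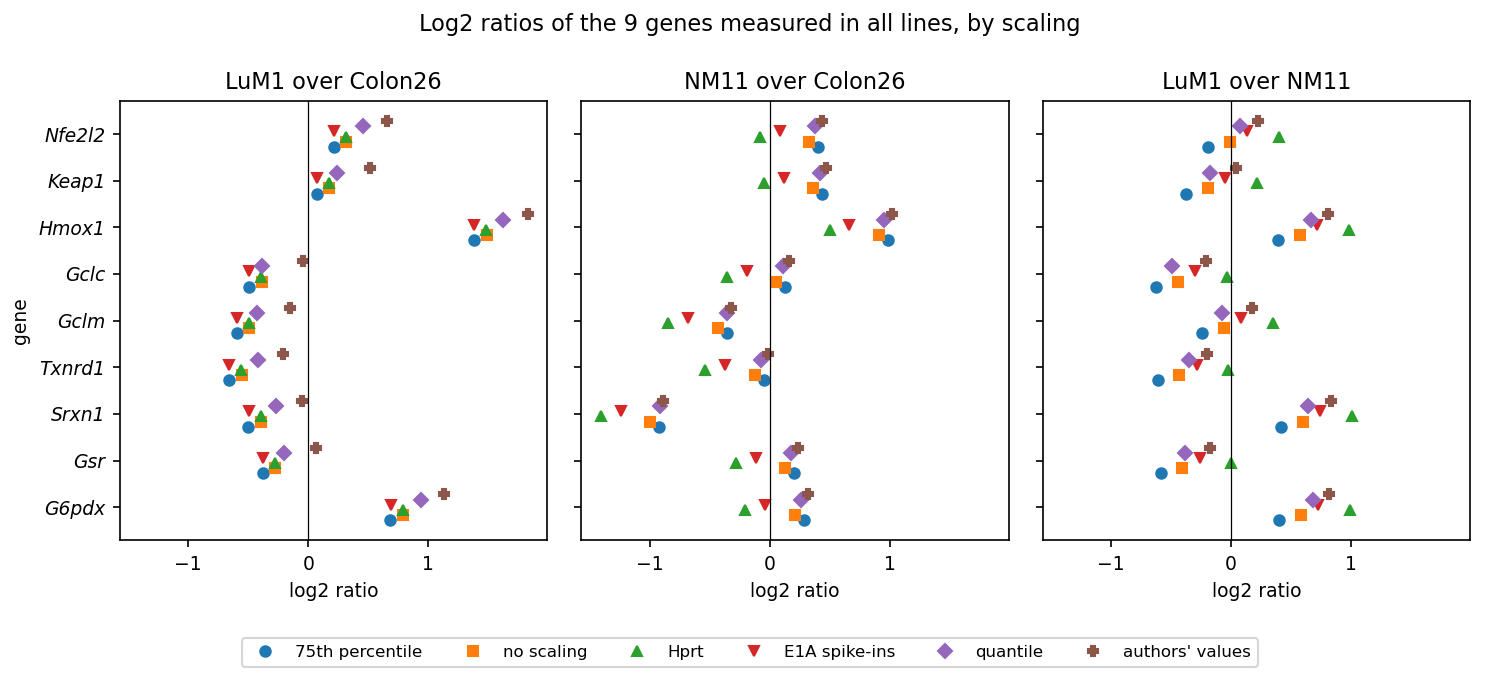
Log2 ratios of the 9 genes measured on all arrays under 6 ways of scaling, in the 3 comparisons. Points of a gene move together from left to right. *Hmox1* stays to the right of 0 in every panel, whereas *Gsr* for LuM1 over Colon26 runs from -0.38 to 0.066.

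A wider list of 91 genes with related functions, in 7 groups, was set beside the 10. For LuM1 over Colon26, 15 of 86 genes with a ratio or bound (17.4%) were at least 2-fold higher and 7 (8.14%) at least 2-fold lower, beside 12.9% and 11.7% of all named genes. For NM11 over Colon26 the counts were 11 (12.9%) and 2 (2.35%) of 85, beside 8.17% and 7.74%. For LuM1 over NM11 they were 6 (7.06%) and 5 (5.88%) of 85, beside 11.1% and 8.5%. The medians of the measured genes were -0.07, 0.10 and -0.19, beside -0.13, -0.02 and -0.11. The counts of each group below are read against the same shares. In all, 26 of the 91 genes passed 2-fold in at least 1 comparison. Of their 46 ratios of at least 2-fold, 15 fell short of 2-fold under at least 1 of 7 other ways of scaling or background correction. The number that changed sign was 0, which could hardly be otherwise. The median of all genes moved by at most 0.59 in log2 under these, and a bound is given on 1 side of 0 only.

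Among the 15 partners and regulators of NRF2, 2 of 14 exceeded Colon26 by at least 2-fold in LuM1 cells, 1 did in NM11 cells, and 0 were at least 2-fold below it. By the brightest probe 0 of 14 passed 2-fold between LuM1 and NM11 cells. *Bach1*, a repressor that occupies the same elements as NRF2 and is released by heme, gave 374 ± 37.9 in Colon26 cells, 835 ± 83.7 in LuM1 cells and 574 ± 57.6 in NM11 cells, 2.23-fold above Colon26 in LuM1 cells (log2 1.16). *Trim21*, a ubiquitin ligase, was 3.21-fold above Colon26 in LuM1 cells and 3.89-fold in NM11 cells (log2 1.68 and 1.96). *Mafg*, *Mafk*, *Maff*, *Cul3* and *Rbx1* lay within 2-fold. *Sqstm1*, whose protein competes with NRF2 for KEAP1, was at 0.93 for NM11 over Colon26 and -0.94 for LuM1 over NM11 by its brighter probe, and beyond 2-fold by its other probe, at 1.11 and -1.08.

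In glutathione synthesis and use, 4 of 16 genes were at least 2-fold above and 4 at least 2-fold below Colon26 in LuM1 cells. *Gss*, which completes glutathione synthesis, was at -1.04 (-0.93 by its other probe), and *Chac1*, which degrades glutathione in the cytosol, at -1.32. *Ggt1*, which cleaves glutathione outside the cell, was at most -1.63, and *Glrx5*, of mitochondrial iron-sulfur assembly, at -1.33. *Glrx*, the cytosolic glutaredoxin, gave 691 ± 69.3 in Colon26 cells, 9033 ± 903 in LuM1 cells and 3875 ± 388 in NM11 cells. It was 13.1-fold above Colon26 in LuM1 cells (log2 3.71) and 5.61-fold in NM11 cells (log2 2.49). The peroxidase *Gpx2* was at 1.75 for LuM1 over Colon26. It was dim, at 40.3 ± 6.71, 136 ± 14.2 and 57.0 ± 6.94 in Colon26, LuM1 and NM11 cells. Over 7 other ways of scaling or background correction its lowest value was 0.87 for LuM1 over Colon26 and 0.74 for LuM1 over NM11. *Oplah*, which recovers glutamate from oxoproline, was at 1.32 for LuM1 over Colon26. *Gpx7* was well above background in LuM1 cells alone, at 338, at least 12.8-fold above Colon26. For NM11 over Colon26, 2 of 15 were at least 2-fold higher (*Glrx* and *Ggt1*) and 0 lower. For LuM1 over NM11, 4 of 16 were higher (*Glrx*, *Gpx2*, *Gpx7* and *Oplah*) and 2 lower (*Ggt1* and *Glrx5*).

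Of the 16 thioredoxin and peroxiredoxin genes, LuM1 cells had 1 at least 2-fold above Colon26 and 0 below, NM11 cells had 2 above and 1 below, and LuM1 against NM11 gave 1 in each direction. *Txnip*, whose protein inhibits thioredoxin, was at 1.36 for LuM1 over Colon26 and 1.31 for NM11 over Colon26. *Txnrd2*, the mitochondrial counterpart of *Txnrd1*, was at -1.17 for NM11 over Colon26 and -0.91 for LuM1 over Colon26, so that NM11 was its low line, whereas *Txnrd1* was lowest in LuM1. *Sesn3*, a sestrin, was at 1.69 for NM11 over Colon26 and -1.18 for LuM1 over NM11. *Msrb1*, a methionine sulfoxide reductase, was at 1.07 for LuM1 over NM11.

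In NADPH supply 1 of 11 genes passed 2-fold over Colon26 in either subline, and 0 between the sublines. *Idh1*, the cytosolic isocitrate dehydrogenase, gave 36.1 ± 6.90 in Colon26 cells, 158 ± 16.4 in LuM1 cells and 189 ± 19.4 in NM11 cells, a log2 ratio to Colon26 of 2.13 and 2.39. Its other probe was not well above background in Colon26 cells and gave bounds of at least 0.45 and 0.27. The other pentose phosphate genes lay within 2-fold and on both sides of 0. *Pgd* was at 0.28 and 0.35, *Tkt* at 0.32 and 0.55 and *Taldo1* at 0.45 and 0.63 for LuM1 and NM11 over Colon26, beside 0.68 and 0.29 for *G6pdx*. *Pgls* was at -0.96 and -0.44 (-0.90 and -0.34 by its other probe), *Rpia* at -0.31 and 0.23, and *Rpe* at -0.11 and -0.14 by the brightest of its probes.

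Of the 14 detoxifying reductases and related enzymes, LuM1 cells had 3 at least 2-fold above and 3 below Colon26, and NM11 cells 3 above and 1 below. For LuM1 over NM11, 0 of 13 were higher and 2 lower. *Cbr3*, a carbonyl reductase, had the detection pattern of *Nqo1*, with 436 in Colon26 cells and no signal well above background in the sublines, at least 21.7-fold lower in LuM1 and 22.3-fold lower in NM11 cells. Its spot had 2 of 60 neighbours well above background in Colon26 alone. *Nqo2*, the paralog of *Nqo1*, was at 1.27 and 1.04 for LuM1 and NM11 over Colon26, and at 1.54 and 0.75 by its other probe. *Akr1b10* was at 1.69 and 0.98 and *Ptgr1* at 0.95 and 1.56. *Mgst1*, a microsomal glutathione transferase, was not well above background in Colon26 cells, and was at least 6.60-fold higher in LuM1 and at least 39.0-fold higher in NM11 cells. *Esd* was at -1.14 for LuM1 over Colon26, and *Cyb5r1* at -1.36 for LuM1 over Colon26 and -1.48 for LuM1 over NM11.

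In heme and iron handling 1 of 8 genes exceeded Colon26 by 2-fold in LuM1 cells, 0 did in NM11 cells, and 0 differed so between the sublines. It was *Blvrb*, a biliverdin reductase that acts after heme oxygenase, at 1.12, with 0.88 for NM11 over Colon26. The ferritin subunits *Fth1* and *Ftl1* were at -0.08 and -0.07 for LuM1 over Colon26, and *Hmox2*, the constitutive heme oxygenase, at 0.03, beside 1.38 for *Hmox1*. Of the 7 genes for superoxide and peroxide removal, LuM1 cells had 3 at least 2-fold above Colon26, NM11 cells 2, and 0 were below. Between the sublines 1 (*Sod3*) was higher in LuM1 cells, at 2.14. *Sod2*, the mitochondrial superoxide dismutase, gave 695 ± 69.8, 2594 ± 259 and 1669 ± 167 in Colon26, LuM1 and NM11 cells, at 1.90 and 1.26 over Colon26. *Sod3*, the extracellular form, was not well above background in Colon26 cells and was at least 105-fold higher in LuM1 and at least 23.7-fold higher in NM11 cells. *Nxn*, nucleoredoxin, was at 1.35 for LuM1 over Colon26.

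**Figure D5:**
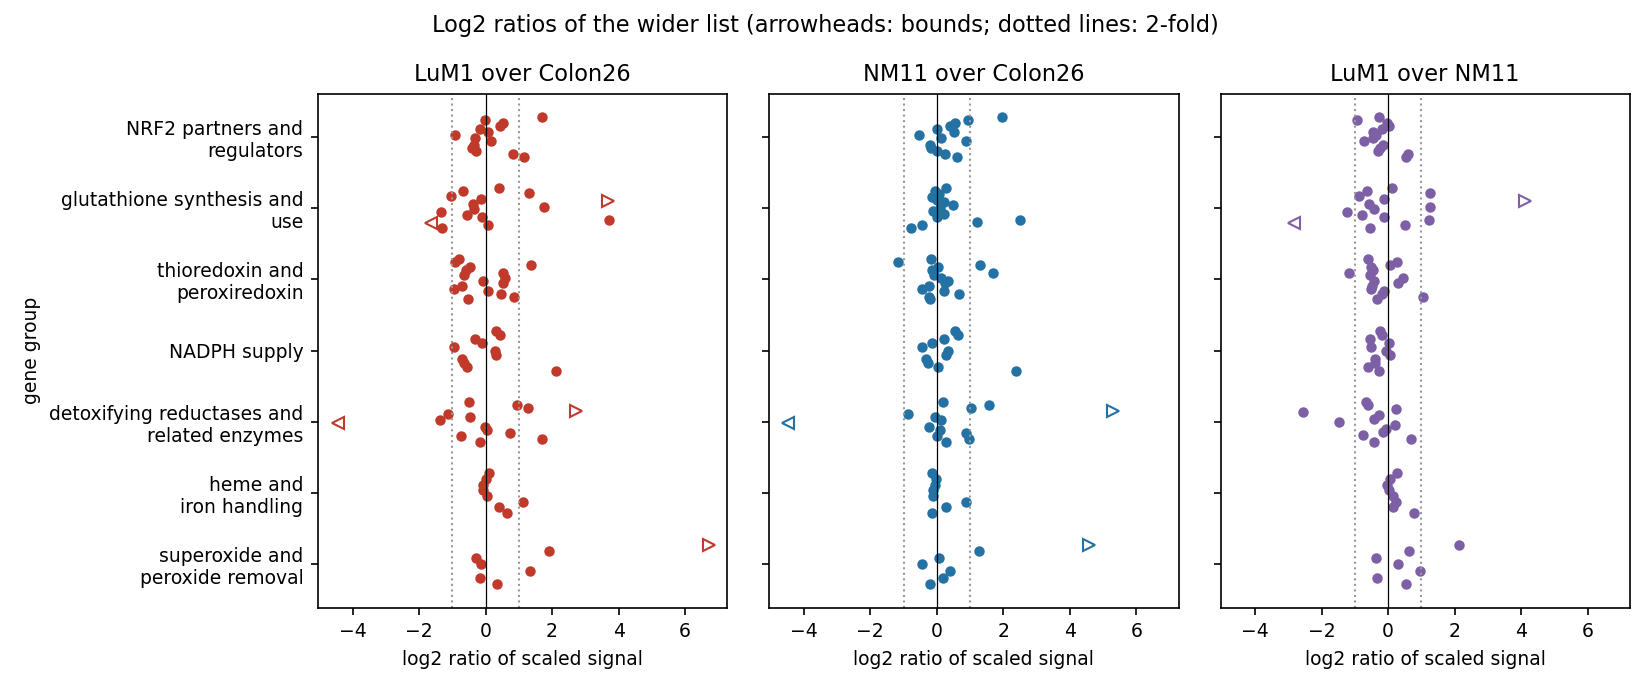
Log2 ratios of the wider list by function in the 3 comparisons, 1 point per gene, with arrowheads for bounds and dotted lines at 2-fold. Most points lie between the dotted lines (64 of 86 for LuM1 over Colon26), and *Sod3* is the farthest to the right, at a bound of 6.71.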

How the data were processed

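Per spot, the authors deposited intensity values that were background-subtracted and detrended by Agilent Feature Extraction 11.5.1.1 without scaling between arrays, and flags of 0 or 1 per spot (outlier, saturated, significantly and well above background). They also deposited processed intensity values, which equal the former times 1 factor per array (0.654, 0.829 and 0.706 for Colon26, LuM1 and NM11). Control and outlier spots were left out, repeated probes averaged, and each array scaled to its 75th percentile over all non-control spots. Log2 ratios were taken per probe. A probe not well above background on 1 array of a pair gave a bound, set by the array's lowest signal well above background or by the probe itself where brighter. No ratio was given where both were below it or the bound fell under 1-fold. A gene was read by its brightest probe. Probes were named through RefSeq accessions of GRCm38.p6 (32994 of 56605, 58.3%). The array design used another assembly, so probe positions are not given.

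The genes, the wider list and the markers were chosen with earlier results of these data known. All 10 genes are described, and genes of the wider list are named where at least 2-fold apart in 1 comparison, plus further ones, chosen after their values were seen, to compare with a member. The precision is limited by the number of arrays. The ratio step was tested on simulated data. Alternatives were unscaled signals, quantile normalization, scaling to *Hprt*, to E1A spike-in controls or to the median of measured probes, normexp (offset 50), the authors' values, a looser detection rule, no filter, the mean over probes, and thresholds of 1.5-fold and 4-fold. Leaving out clustered spots was chosen after seeing the data. Software was R 4.3.3 (limma 3.58.1) and Python 3.11.15 (pandas 2.3.3, numpy 2.4.6, matplotlib 3.10.9, scipy 1.17.1).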

Additional observations from a re-analysis of the deposited data

Results flagged for a closer look

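With 1 array per line none of these differences was tested. *Gsr* lay below Colon26 in LuM1 cells (log2 -0.38) and above it in NM11 cells (0.21), on opposite sides. The NM11 value was only about 1 scanner error from 0. In the authors' processed values the first was 0.066, and with scaling to *Hprt* the second was -0.28, so the opposition does not hold under every scaling. *Ggt1* was at most -1.63 in LuM1 cells and 1.20 in NM11 cells against Colon26, and its LuM1 spot was not well above background. Over 7 other ways of scaling or background correction these values shrank as far as -0.77 and 0.58. *Msrb1* was at 0.84 in LuM1 cells and -0.22 in NM11 cells against Colon26, the latter about 1 scanner error.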

How the results depend on the processing

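No paired analysis was possible because each line has 1 array and the labels carry no replicate numbers. For LuM1 over Colon26 the members' median moved from -0.38 to 0.066 in the authors' processed values. For NM11 over Colon26 it moved from 0.21 to -0.28 with scaling to *Hprt* and -0.12 with the E1A spike-in controls. For LuM1 over NM11 it moved from -0.24 to 0.35, 0.086 and 0.18 with *Hprt*, the spike-in controls and the authors' values. The cause was not tested.

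Percentages here are shares of all named genes well above background on either array of the pair, at the same setting. Members at least 2-fold above Colon26 in LuM1 cells went from 1 to 2 in the authors' values (*G6pdx* added, 21.2%). They also went to 2 at a 1.5-fold threshold (20.4%), and to 0 at 4-fold (5.91%). Those higher in NM11 than in Colon26 cells went from 0 to 1 (*Hmox1*) with scaling to the median of measured probes (8.43%). The same count held in the authors' values (8.57%) and at 1.5-fold (15.5%). Those higher in LuM1 than in NM11 cells went from 0 to 1 (*Srxn1*) with scaling to *Hprt* (24.8%). At 1.5-fold, those lower in LuM1 than in Colon26 cells went from 1 to 3 (24.6%). Those lower in LuM1 than in NM11 cells went from 0 to 3 (20.5%), also at 1.5-fold. Those lower in NM11 than in Colon26 cells went from 1 to 2 (*Srxn1* added) in 3 settings. These were *Hprt* (19.3%), the spike-in controls (13.9%) and 1.5-fold (16.7%). With so few members, these counts lie near the shares. Leaving out 1680 probes of clustered spots, *Nqo1* among them, left 0 lower in either subline than in Colon26 cells. The shares lower were then 10.6% for LuM1 and 6.34% for NM11. Each count above of members lower than Colon26 holds *Nqo1*, so that it is 1 less without it. Of 317 single-gene values under an alternative, 74 moved by more than the scanner error. Many of the 317 could not move. The settings on dim and clustered spots left the measured ratios as they were, and the mean over probes left those of genes with 1 probe. Of the ratios at least 2-fold 0 changed sign, but they could hardly have done so. They were *Hmox1* for LuM1 over Colon26, at 1.38, and the *Nqo1* bounds. The median of all genes for LuM1 over Colon26 moved by at most 0.45, and an upper bound above 0 was never given. Smaller ratios did change sign, as stated with their genes above. Dim spots limit *Nqo1*, *Cbr3*, *Gpx7*, *Mgst1*, *Ggt1* and *Sod3* to bounds.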
